A study of Mus musculus with 12 samples.

Results

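The genes described here are the collagens, the laminins and 6 further genes of the basement membrane and pericellular matrix. Members were all rows of the count table whose symbol had the form of a collagen chain (*Col1a1* and so on) or of a laminin chain (*Lama1*, *Lamb1*, *Lamc1* and so on), plus *Hspg2*, *Agrn*, *Nid1*, *Nid2*, *Fn1* and *Sparc*. This gave 61 of the 55291 genes in the table, of which 44 were collagens, 11 were laminins and 6 were the added genes. The rule uses symbols alone. The libraries were made from total RNA of Lineage-cKit+ (LK) bone marrow cells, a progenitor-enriched fraction purified with beads, from individual C57BL/6 mice. There were 4 genotypes with 3 mice each: WT, Kdm6bΔ/+ (1 *Kdm6b* allele removed), Asxl1Y588XTg (a transgene for truncated ASXL1) and Asxl1Y588XTg Kdm6bΔ/+ (both). Per the study's methods the Asxl1Y588XTg mice were 12 months old and preleukemic and the other mice were age-matched, and the *Kdm6b* deletion was made by *Mx1Cre*, an interferon-inducible Cre that is also active outside blood cells, after injection of pI:pC. The promoter of the *Asxl1* transgene, and whether the WT and Asxl1Y588XTg mice of this experiment carried *Mx1Cre* or received pI:pC, are not given in the sources used here. Library totals were 14451522 to 23482563 counts.

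Basement membranes are thin sheets of matrix on which endothelial and epithelial cells rest and which surround fat, muscle and some stromal cells. Their core is a laminin polymer, in which each molecule joins 1 alpha, 1 beta and 1 gamma chain, and a type IV collagen network, linked by nidogens and by the heparan sulfate proteoglycans perlecan (*Hspg2*) and agrin (*Agrn*). Type XVIII collagen (*Col18a1*) is a basement membrane collagen that carries heparan sulfate chains and whose C-terminal fragment is endostatin, and type XVI collagen (*Col16a1*) is a fibril-associated collagen found near basement membranes. In the marrow most of this matrix is made by endothelial cells, stromal cells and osteoblasts, while megakaryocytes and some progenitors make part of it.

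The promoter windows of the 4 members that passed the test in any comparison are shown because 3 of them moved together. RefSeq (GRCm38.p6) gave 49 windows, each 250 bases before to 50 bases after an annotated start, for 44 of the 61 members. Windows were searched on both strands for the GC box GGGCGG, the TATA box TATAAA, the string AGATAA that GATA factors can bind and the string CCGGAAG that ETS factors can bind, none of which contains another. Capitals mark a GC box or its reverse complement, since none of these 5 windows held any of the other strings. The first *Col18a1* window is the upstream start at chr10:77166481-77166780 (minus strand), the second the internal start at chr10:77113656-77113955 (minus strand), and the others lie at chr4:130047590-130047889 (plus strand, *Col16a1*), chr2:180225810-180226109 (minus strand, *Lama5*) and chr2:27886175-27886474 (plus strand, *Col5a1*).
Col18a1, upstream start: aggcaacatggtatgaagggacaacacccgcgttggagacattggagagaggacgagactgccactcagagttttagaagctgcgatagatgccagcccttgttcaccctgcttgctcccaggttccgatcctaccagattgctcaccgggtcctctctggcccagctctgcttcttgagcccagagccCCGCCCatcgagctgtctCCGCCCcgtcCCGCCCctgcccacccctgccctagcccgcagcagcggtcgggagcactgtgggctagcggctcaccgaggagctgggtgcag
Col18a1, internal start: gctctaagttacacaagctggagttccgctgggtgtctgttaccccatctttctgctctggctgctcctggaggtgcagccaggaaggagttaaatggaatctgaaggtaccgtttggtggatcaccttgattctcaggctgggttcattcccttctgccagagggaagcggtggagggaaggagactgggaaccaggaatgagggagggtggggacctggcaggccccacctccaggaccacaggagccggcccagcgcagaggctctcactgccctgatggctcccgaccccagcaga
Col16a1: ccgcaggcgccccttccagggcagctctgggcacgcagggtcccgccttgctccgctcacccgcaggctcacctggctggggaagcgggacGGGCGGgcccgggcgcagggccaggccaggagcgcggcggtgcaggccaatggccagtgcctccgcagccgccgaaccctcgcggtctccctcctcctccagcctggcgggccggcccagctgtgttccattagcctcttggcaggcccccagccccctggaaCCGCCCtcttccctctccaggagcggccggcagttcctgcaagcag
Lama5: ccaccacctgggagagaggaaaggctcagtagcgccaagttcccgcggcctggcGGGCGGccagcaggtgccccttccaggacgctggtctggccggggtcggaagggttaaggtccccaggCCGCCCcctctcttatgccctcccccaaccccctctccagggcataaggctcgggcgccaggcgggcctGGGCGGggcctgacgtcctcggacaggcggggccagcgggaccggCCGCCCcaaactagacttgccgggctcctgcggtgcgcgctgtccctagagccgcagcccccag
Col5a1: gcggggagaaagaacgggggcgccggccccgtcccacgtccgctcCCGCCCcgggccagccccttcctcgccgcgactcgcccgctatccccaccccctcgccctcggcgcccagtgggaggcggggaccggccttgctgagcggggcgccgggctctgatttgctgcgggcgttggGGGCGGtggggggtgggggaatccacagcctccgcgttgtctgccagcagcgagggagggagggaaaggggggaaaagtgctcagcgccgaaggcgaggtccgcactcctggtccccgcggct
The upstream *Col18a1* window held 3 GC boxes and 16 CpG dinucleotides, and the internal window held 0 GC boxes and 6 CpG dinucleotides. *Col16a1* held 2 GC boxes and 24 CpG, *Lama5* 4 and 24, and *Col5a1*, which moved the other way, 2 and 34. A GC box was present in 61.2% of the 49 member windows and in 35.7% of all 32851 windows, with a median of 11 CpG against 7. TATAAA was present in 10.2% of member windows and 13.6% of all, AGATAA in 4.1% and 11.2%, and CCGGAAG in 0.0% and 8.9%. Several members have more than 1 window and some pairs share a start region, so the windows are not independent.

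Each of the 61 members had at least 1 count in some library. At least 10 counts in each of the 3 libraries of 1 genotype were found for 39 members, and at least 10 counts in all 12 libraries for 28. The filter on low counts left 41 members for testing, 29 collagens, 6 laminins and the 6 added genes, of which 27 were past its minimum in all 12 libraries. The remaining 20 members reached at most 25 counts in any library and held 1.24% of all member counts. Among these were *Col4a3*, *Col6a4*, *Col6a5*, *Col6a6*, *Col8a2*, *Col9a1*, *Col9a3*, *Col13a1*, *Col15a1*, *Col19a1*, *Col22a1*, *Col24a1*, *Col25a1*, *Col26a1*, *Col28a1*, *Lama1*, *Lama2*, *Lama3* and *Lamc3*, and differences in the 20 were not detectable at this depth. *Col15a1*, the closest relative of *Col18a1*, was among them with at most 8 counts in a library. *Col4a6* passed the filter without any WT or Kdm6bΔ/+ library past the minimum, through 3 Asxl1Y588XTg and 2 Asxl1Y588XTg Kdm6bΔ/+ libraries. *Lamb1* passed without any WT library, through 1 Kdm6bΔ/+, 2 Asxl1Y588XTg and 3 Asxl1Y588XTg Kdm6bΔ/+ libraries. Counts over the 41 tested members include both genes, whose places in them are not results where the comparison is with WT.

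Levels were compared between genes as mean normalized counts per kb of exon. Over all 12 libraries the highest were *Col1a1* (70.8), a chain of type I collagen of bone and tendon, and *Col5a1* (62.5), a chain of type V collagen that regulates fibril diameter. *Fn1* (fibronectin, 34.1), *Col16a1* (34.0), *Sparc* (a matricellular collagen-binding protein, 30.8), *Col1a2* (30.0), *Lamc1* (the gamma chain of most laminins, 29.9) and *Agrn* (29.7) followed. The order differed by genotype in the per-kb means, with *Col1a1* first in WT (67.9) and *Col16a1* first in Asxl1Y588XTg (88.2). *Col18a1* had a per-kb mean of 49.3 in Asxl1Y588XTg, close to that of *Col5a1* there (49.5). All members together held 49671 counts over the 12 libraries, 70.4% of them in 10 genes.

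**Figure D1:**
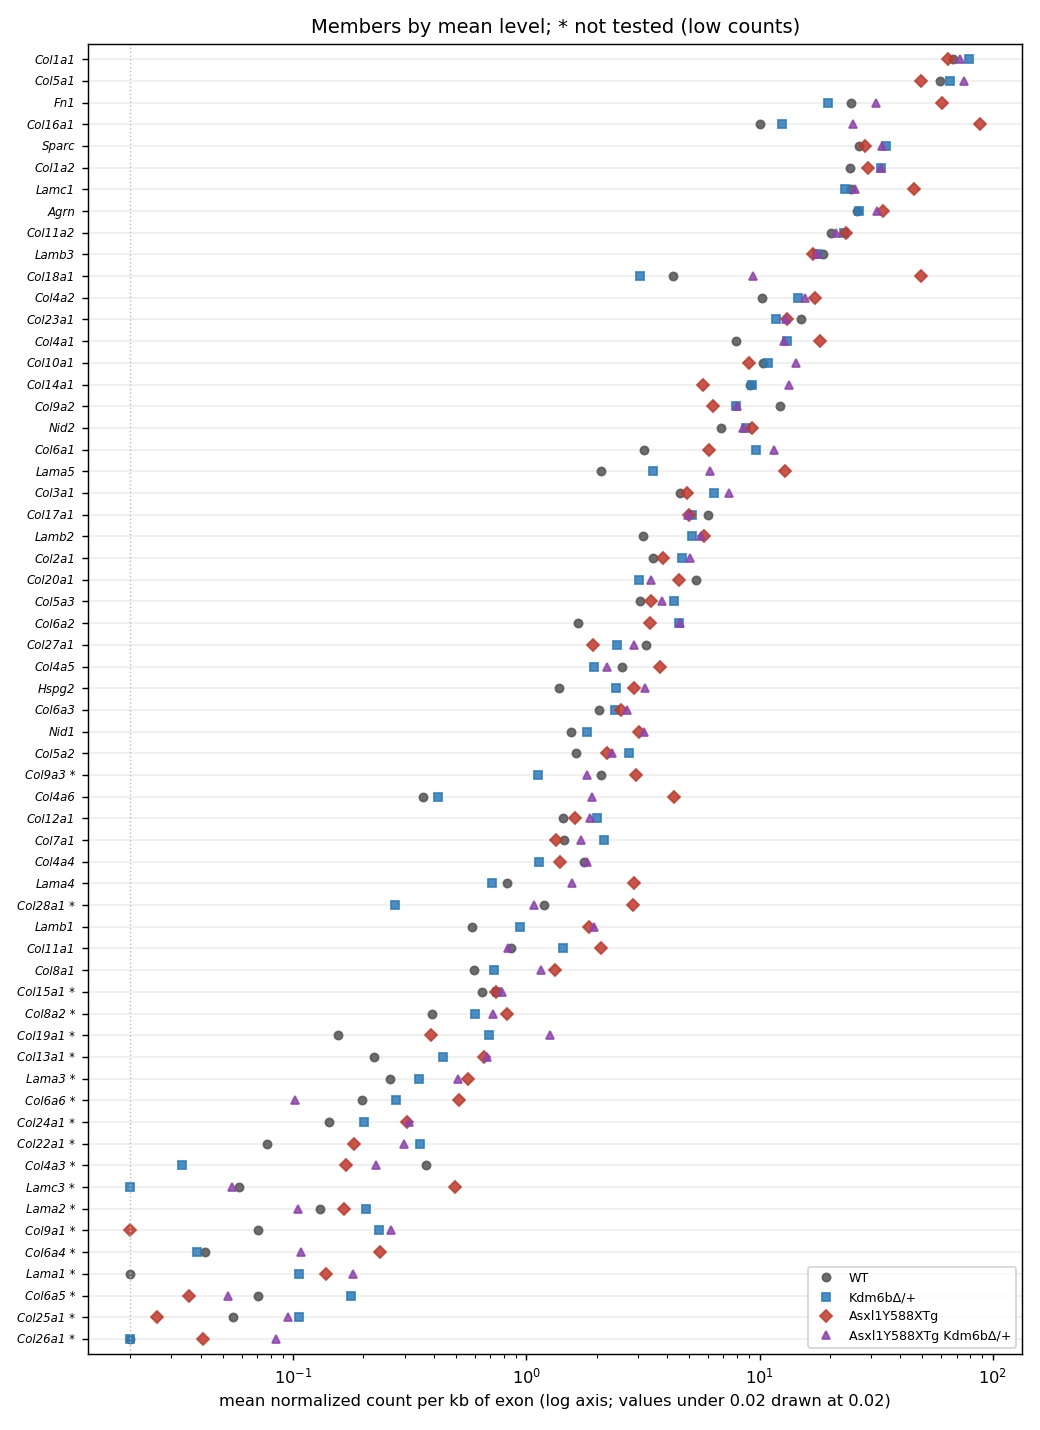
Mean normalized count per kb of exon (horizontal log axis) of the members reported here in each of the 4 genotypes, with 3 libraries per point and members ordered by their mean over all libraries. Members marked with an asterisk were too low to test, and *Col16a1*, *Col18a1*, *Lama5* and *Col4a6* show the Asxl1Y588XTg point (red diamond) to the right of the other 3.

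In CPM, the count scaled to a common library total, the 61 members together held 202, 179 and 183 in the 3 WT libraries, 210, 182 and 233 in Kdm6bΔ/+, 305, 268 and 333 in Asxl1Y588XTg, and 235, 222 and 271 in Asxl1Y588XTg Kdm6bΔ/+. All 3 Asxl1Y588XTg libraries lay above all WT and Kdm6bΔ/+ libraries, and above 2 of the 3 Asxl1Y588XTg Kdm6bΔ/+ libraries. Among the 41 tested members the highest genotype mean was in Asxl1Y588XTg for 16, in Asxl1Y588XTg Kdm6bΔ/+ for 12, in Kdm6bΔ/+ for 7 and in WT for 6, and the lowest was in WT for 23.

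*Kdm6b*, the targeted gene, had normalized counts of 2142, 2372 and 1869 in WT, 1622, 1529 and 1346 in Kdm6bΔ/+, 2270, 2303 and 2187 in Asxl1Y588XTg, and 1649, 1873 and 1910 in Asxl1Y588XTg Kdm6bΔ/+. All 3 Kdm6bΔ/+ libraries were below all WT libraries and all 3 Asxl1Y588XTg Kdm6bΔ/+ libraries were below all Asxl1Y588XTg libraries. The change was −0.51 on the log2 scale in Kdm6bΔ/+ against WT and −0.30 in Asxl1Y588XTg Kdm6bΔ/+ against Asxl1Y588XTg, with adjusted p of 0.279 and 0.0717 (quasi-likelihood test of edgeR, Benjamini-Hochberg adjusted across the 15825 genes tested, which is the adjusted p used throughout). Reads outside the deleted exons still count toward this gene. Libraries with transcripts of Y-linked genes numbered 0 of 3 in WT, 2 of 3 in Kdm6bΔ/+, 1 of 3 in Asxl1Y588XTg (replicate 2) and 3 of 3 in Asxl1Y588XTg Kdm6bΔ/+, so sex moved with genotype. The label was checked on markers of LK cells. *Kit* had normalized counts of 5764 to 7759 in every library, while 8 neutrophil genes summed to means of 1158800 to 1337300 by genotype, so transcripts of maturing neutrophils were abundant in every group. Of the 10 progenitor markers, *Gata2*, a transcription factor of stem cells and megakaryocyte progenitors, was called higher in Asxl1Y588XTg against WT and lower in Asxl1Y588XTg Kdm6bΔ/+ against Asxl1Y588XTg, with normalized counts of 1056, 736 and 1069 in WT, 589, 832 and 571 in Kdm6bΔ/+, 1539, 1670 and 1536 in Asxl1Y588XTg, and 821, 616 and 870 in Asxl1Y588XTg Kdm6bΔ/+. The rise was lost without WT replicate 3 (adjusted p = 0.0704) or Asxl1Y588XTg replicate 1 (0.084), 2 (0.112) or 3 (0.0788), and fell under the fold threshold without WT replicate 2 (log2 fold change 0.57). The fall was lost without Asxl1Y588XTg Kdm6bΔ/+ replicate 1 (adjusted p = 0.0573, edgeR) and in a fit of all genotypes with a covariate marking the libraries with Y-linked transcripts (0.0828). *Ly6a*, which encodes the stem cell antigen Sca-1, had 22.9, 75.4 and 67.4 in WT, 86.7, 112 and 104 in Kdm6bΔ/+, 442, 274 and 180 in Asxl1Y588XTg, and 93.7, 94 and 99 in Asxl1Y588XTg Kdm6bΔ/+, and did not pass (adjusted p = 0.054 in Asxl1Y588XTg against WT and 0.0559 in Asxl1Y588XTg Kdm6bΔ/+ against Asxl1Y588XTg, edgeR). The Asxl1Y588XTg libraries were the highest for both genes, as for *Col18a1*, and the part of a shift among progenitors in the results below was not tested.

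The first comparison asked what the truncated *Asxl1* transgene did to these genes. *Asxl1* itself had normalized counts of 2545, 3081 and 2762 in WT and 2906, 3060 and 3034 in Asxl1Y588XTg. These groups overlapped, so the counts of this gene do not show the transgene and the genotype rests on the label. *Col18a1*, *Col16a1* and *Lama5* rose in Asxl1Y588XTg LK cells against WT and no member fell. These were 3 of the 41 tested members, beside 1.58% of all genes tested that were called higher at an adjusted p under 0.05 and a fold above 1.5. Of all genes 0.0316% were called lower, and of the 41 members 0 were called lower by edgeR, 0 by DESeq2 and 0 at an unadjusted p under 0.05 (2.05% of all genes).

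*Col18a1* (chromosome 10, 77052178 to 77166548, minus strand, GRCm38) had normalized counts of 41.2, 12.02 and 36.4 in WT, 28.9, 17.8 and 17.6 in Kdm6bΔ/+, 346, 413 and 280 in Asxl1Y588XTg, and 47.2, 55.0 and 94.9 in Asxl1Y588XTg Kdm6bΔ/+. Every Asxl1Y588XTg library was above every library of the other genotypes, and the Asxl1Y588XTg Kdm6bΔ/+ libraries lay between them and WT. The log2 fold change of Asxl1Y588XTg over WT was 3.51 (SE 0.36, adjusted p = 0.00294, edgeR). No exon of *Col18a1* overlaps an exon of another annotated gene. *Col16a1* (chromosome 4, 130047840 to 130099283, plus strand) had normalized counts of 40.3, 81.9 and 81.3 in WT, 94.2, 74.4 and 85.1 in Kdm6bΔ/+, 734, 604 and 449 in Asxl1Y588XTg, and 190, 120 and 202 in Asxl1Y588XTg Kdm6bΔ/+. The Asxl1Y588XTg libraries again stood above all others, and the Asxl1Y588XTg Kdm6bΔ/+ libraries stood above all WT and Kdm6bΔ/+ libraries. Its log2 fold change in Asxl1Y588XTg was 3.14 (SE 0.29, adjusted p = 0.00206, edgeR). Both genes kept their call when any of the 6 libraries was left out and under each of the 7 alternative settings tried.

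*Lama5*, the laminin alpha chain of mature vascular and epithelial basement membranes (chromosome 2, 180176373 to 180225859, minus strand), had normalized counts of 13.7, 43.7 and 13.9 in WT, 69.1, 32.7 and 17.6 in Kdm6bΔ/+, 139, 179 and 124 in Asxl1Y588XTg, and 70.8, 63.0 and 76.3 in Asxl1Y588XTg Kdm6bΔ/+. The Asxl1Y588XTg libraries were above all others, while the Kdm6bΔ/+ values spread over the range from WT to Asxl1Y588XTg Kdm6bΔ/+. The log2 fold change in Asxl1Y588XTg was 2.63 (SE 0.44, adjusted p = 0.0173, edgeR). The call was lost when WT replicate 3 (adjusted p = 0.0923), Asxl1Y588XTg replicate 1 (0.0512) or Asxl1Y588XTg replicate 2 (0.0744) was left out (edgeR).

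**Figure D2:**
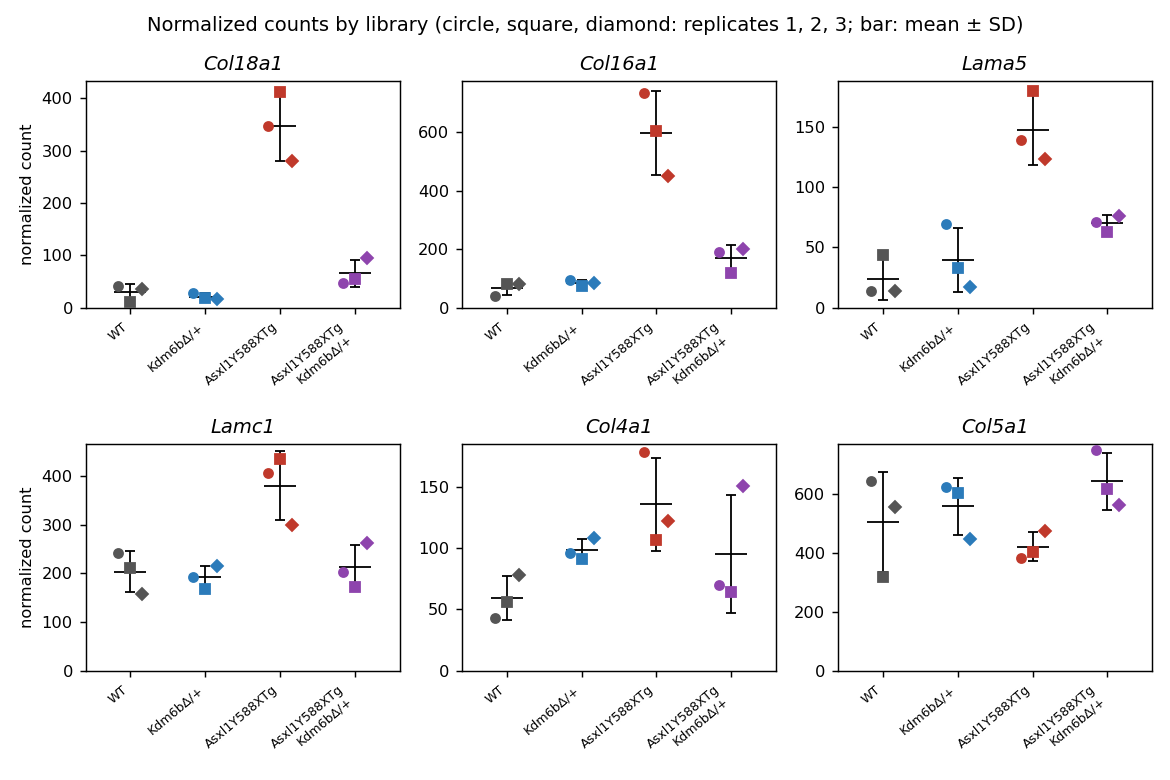
Normalized counts (vertical axis, from 0) of 6 members in each of the 12 libraries, with genotypes on the horizontal axis, replicates 1, 2 and 3 as circle, square and diamond, and bars for mean ± SD (n = 3). For *Col18a1*, *Col16a1* and *Lama5* the Asxl1Y588XTg libraries sit above all others, and for *Col5a1* they sit below the 3 Asxl1Y588XTg Kdm6bΔ/+ libraries.

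These 3 genes were also compared among libraries matched for Y-linked transcripts. Both Asxl1Y588XTg libraries without Y-linked transcripts, replicates 1 and 3, had *Col18a1* at 346 and 280, *Col16a1* at 734 and 449 and *Lama5* at 139 and 124 normalized counts. The WT libraries, none of which had such transcripts, reached at most 41.2, 81.9 and 43.7. With such libraries marked by a covariate in a single fit of all genotypes, *Col18a1*, *Col16a1* and *Lama5* still passed in Asxl1Y588XTg against WT.

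The other laminin and type IV collagen chains that could be tested did not pass, in either direction. *Lamc1* had normalized counts of 242, 212 and 158 in WT, 192, 168 and 216 in Kdm6bΔ/+, 407, 436 and 300 in Asxl1Y588XTg, and 202, 172 and 263 in Asxl1Y588XTg Kdm6bΔ/+. The Asxl1Y588XTg libraries were above all others, with a log2 fold change of 0.90 (SE 0.20, adjusted p = 0.0604, edgeR). It passed without WT replicate 1 (adjusted p = 0.0485, edgeR), where the number of members called higher went from 3 to 5, the others being *Lamc1* and *Col4a6*. The *Col4a6* call is not a result, since that gene passed the filter only through the groups where it is high. The next 4 genes are named after their values were seen. *Lama4*, an endothelial and megakaryocyte laminin chain, had a log2 fold change of 1.79 (adjusted p = 0.138), and *Col4a1*, 1 of the 2 chains of the common type IV collagen, 1.20 (adjusted p = 0.109, edgeR). *Col4a6*, a chain of a rarer type IV collagen, had normalized counts of 0.0, 2.18 and 6.42 in WT and 30.2, 38.2 and 34.4 in Asxl1Y588XTg and, since it passed the filter without any WT library, its difference is given as a value alone. *Col11a1*, a minor fibrillar chain of cartilage, had a log2 fold change of 1.26 (adjusted p = 0.38, edgeR). *Col4a1* and *Col4a2* are read from a shared head-to-head promoter whose starts lie 21 bp apart, and *Col4a2* had a log2 fold change of 0.75 (adjusted p = 0.49, edgeR).

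The added linker and matricellular genes did not pass. Of these 6 genes, 2 reached an unadjusted p under 0.05 (7.30% of all genes higher and 2.05% lower), *Agrn* with a log2 fold change of 0.37 (adjusted p = 0.44) and *Fn1* with 1.30 (adjusted p = 0.496, edgeR). *Fn1* had normalized counts of 253, 357 and 251 in WT and 527, 350 and 1244 in Asxl1Y588XTg, so that replicate 3 alone set much of the Asxl1Y588XTg mean and the groups overlapped. Without that library the log2 fold change was 0.61. *Hspg2* means were 19.7 ± 10.8 in WT and 41.3 ± 16.9 in Asxl1Y588XTg, *Nid1* means 10.8 ± 9.66 and 21.2 ± 17.4, *Nid2* means 35.2 ± 2.80 and 48.1 ± 10.8, and *Sparc* means 101 ± 24.9 and 107 ± 13.3 (normalized counts, SD, n = 3). For *Nid1* and *Sparc* the spread within a genotype was as large as the difference.

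The abundant interstitial collagens did not follow *Col18a1* and *Col16a1*. *Col1a1* had means of 445 ± 62.4 normalized counts in WT and 420 ± 94.9 in Asxl1Y588XTg, and *Col5a1* had means of 505 ± 170 and 420 ± 48.4 (SD, n = 3). *Col23a1*, a transmembrane collagen, had 86.1 ± 33.8 and 75.3 ± 11.5, and *Lamb3*, a laminin beta chain of epithelium, 124 ± 31.8 and 113 ± 17.0. All 4 pairs of groups overlapped. Fibrillar collagens summed to 1562 ± 236 normalized counts in WT and 1547 ± 229 in Asxl1Y588XTg, network-forming collagens to 208 ± 13.4 and 368 ± 67.0, laminin alpha chains to 38.6 ± 18.9 and 192 ± 27.2, and laminin beta chains to 149 ± 24.9 and 166 ± 21.9. Over all 41 tested members the median log2 fold change was 0.37 (−0.01 over all genes tested), 29 were higher in Asxl1Y588XTg (47.8% of all genes), and 11 reached an unadjusted p under 0.05 in that direction (7.30% of all genes). The Asxl1Y588XTg libraries lay wholly above WT for 11 members (10.5% of all genes) and wholly below for 1, *Col9a2* (5.21%). The 11 include *Col4a6* and *Lamb1*, which passed the filter without any WT library past its minimum.

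The second comparison asked what removal of 1 *Kdm6b* allele did on the *Asxl1* transgenic background. *Col18a1*, *Col16a1* and *Lama5* fell in Asxl1Y588XTg Kdm6bΔ/+ against Asxl1Y588XTg, and *Col5a1* rose. These 3 of 41 members stand beside 1.59% of all genes tested that were called lower, and the 1 beside 0.145% called higher. The comparison shares its Asxl1Y588XTg libraries with the first, so a gene high in those libraries is pulled toward opposite signs in the 2 comparisons. The log2 fold changes of Asxl1Y588XTg Kdm6bΔ/+ over Asxl1Y588XTg were −2.39 for *Col18a1* (SE 0.27, adjusted p = 0.00874), −1.78 for *Col16a1* (SE 0.25, adjusted p = 0.0268) and −1.05 for *Lama5* (SE 0.20, adjusted p = 0.0261, edgeR). *Col5a1* had normalized counts of 383, 403 and 475 in Asxl1Y588XTg and 748, 616 and 562 in Asxl1Y588XTg Kdm6bΔ/+, with a log2 fold change of 0.63 (SE 0.12, adjusted p = 0.0306, edgeR). Neither group overlapped the other for any of these 4 genes, while the *Col5a1* values of WT, from 316 to 644, reached into both groups. Exons of *Col5a1* overlap 2 annotated genes on the opposite strand over 212 bases in all.

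The calls leaned on single libraries to different degrees. *Col18a1* lost its call without Asxl1Y588XTg Kdm6bΔ/+ replicate 2 (adjusted p = 0.059, edgeR), and *Col16a1* without Asxl1Y588XTg replicate 2 (0.0628) or Asxl1Y588XTg Kdm6bΔ/+ replicate 1 (0.118). *Lama5* lost it without Asxl1Y588XTg replicate 2 (adjusted p = 0.0701), Asxl1Y588XTg Kdm6bΔ/+ replicate 1 (0.0939) or Asxl1Y588XTg Kdm6bΔ/+ replicate 2 (0.124, edgeR). *Col5a1* lost it without Asxl1Y588XTg replicate 1 (adjusted p = 0.0662), Asxl1Y588XTg replicate 2 (0.0797), Asxl1Y588XTg Kdm6bΔ/+ replicate 1 (0.1) or Asxl1Y588XTg Kdm6bΔ/+ replicate 2 (0.124, edgeR). With all 4 genotypes in 1 fit, *Lama5* (adjusted p = 0.33) and *Col5a1* (0.277) did not pass, nor did they with the Y-linked covariate added to that fit (0.505 and 0.556), while *Col18a1* and *Col16a1* passed in both (edgeR). Over the 7 alternatives the log2 fold change was −1.33 to −1.04 for *Lama5* and 0.613 to 0.705 for *Col5a1*. A fit with replicate number as a block ended the calls of all 4 genes, *Col18a1* (adjusted p = 0.0558) and *Col16a1* (0.0616, edgeR) included. Asxl1Y588XTg replicate 2, which had Y-linked transcripts as all Asxl1Y588XTg Kdm6bΔ/+ libraries did, had *Col18a1* at 413 normalized counts against at most 94.9 in Asxl1Y588XTg Kdm6bΔ/+. The number of members called lower was 1 without Asxl1Y588XTg replicate 2, Asxl1Y588XTg Kdm6bΔ/+ replicate 1 or Asxl1Y588XTg Kdm6bΔ/+ replicate 2.

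Among the other members, *Lamc1* had a log2 fold change of −0.83 (SE 0.19, adjusted p = 0.0653, edgeR) and its Asxl1Y588XTg Kdm6bΔ/+ libraries were below all Asxl1Y588XTg libraries. It passed without Asxl1Y588XTg replicate 3 (adjusted p = 0.0354) or Asxl1Y588XTg Kdm6bΔ/+ replicate 3 (0.0268), with all genotypes in 1 fit (0.0488) and with no filter on low counts (2.06e-07, edgeR), and with DESeq2 (0.00241). *Lama4* (−0.88, adjusted p = 0.26) and *Col11a1* (−1.32, adjusted p = 0.136, edgeR) were also below without overlap. *Col4a6* (−1.14) was below too, but it passed the filter only through the groups where it is high, so this is a value alone. *Col4a1* (−0.50, adjusted p = 0.577, edgeR) overlapped, with Asxl1Y588XTg Kdm6bΔ/+ replicate 3 at 151 normalized counts and replicates 1 and 2 at 70.1 and 64.0. Over the 41 tested members the median log2 fold change was 0.07 (0.00 over all genes tested), with 23 higher (49.2% of all genes). At an unadjusted p under 0.05 there were 3 higher (5.64% of all genes) and 7 lower (9.81%). The Asxl1Y588XTg Kdm6bΔ/+ libraries lay wholly below Asxl1Y588XTg for 7 members (14.1% of all genes), *Col4a6* included, and wholly above for 2 (7.11%).

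**Figure D3:**
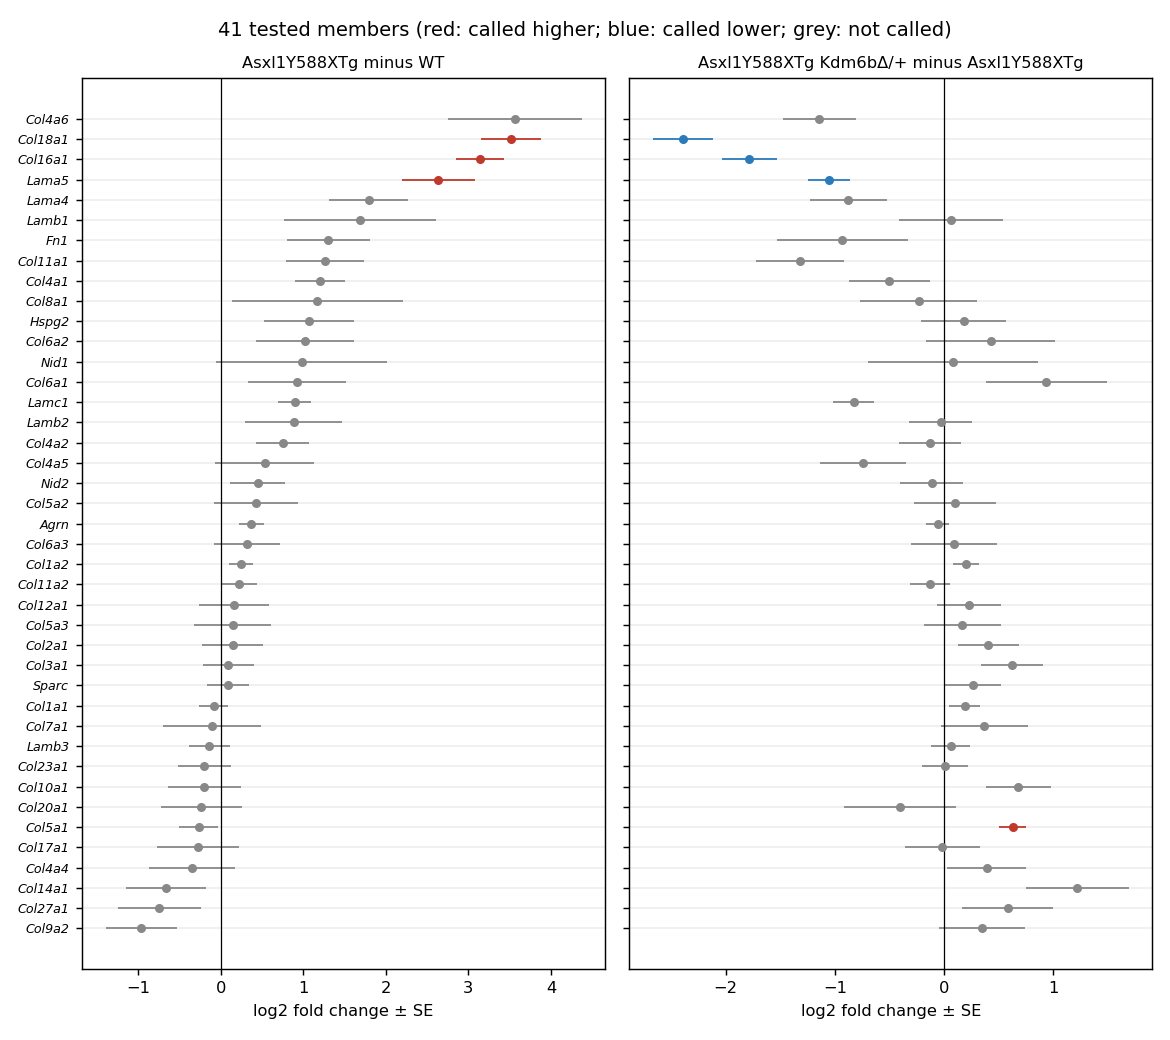
Log2 fold change ± SE (horizontal axis) of the 41 tested members for Asxl1Y588XTg minus WT (left) and Asxl1Y588XTg Kdm6bΔ/+ minus Asxl1Y588XTg (right), ordered by the left panel, with 3 libraries per genotype. *Col18a1*, *Col16a1* and *Lama5* are red (called higher) on the left and blue (called lower) on the right, *Col5a1* is red on the right alone, and both panels use the Asxl1Y588XTg libraries.

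Removal of 1 *Kdm6b* allele without the *Asxl1* transgene gave no member call. In Kdm6bΔ/+ against WT, 0 of 41 members were called in either direction by edgeR (0.0758% of all genes called higher and 0.0190% lower) and 0 by DESeq2, and 3 reached an unadjusted p under 0.05, all higher (1.30% of all genes, with 2.19% lower). These were *Col4a1* (log2 fold change 0.74) and the neighbouring genes of type VI collagen, a beaded-filament collagen of stroma, *Col6a1* (1.59) and *Col6a2* (1.43), each with an adjusted p of 1 (edgeR). *Col18a1* had a log2 fold change of −0.49 and *Col16a1* of 0.32, within the spread of the libraries. The Kdm6bΔ/+ libraries lay wholly above WT for 5 members (4.13% of all genes) and wholly below for 2 (4.80%). The members' median log2 fold change was 0.29 (0.00 over all genes tested), with 29 of 41 higher (49.2% of all genes).

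In Asxl1Y588XTg Kdm6bΔ/+ against WT, 0 of 41 members were called by edgeR (0.145% of all genes called higher and 0.0695% lower), 1 by DESeq2 (*Col16a1*), and 9 reached an unadjusted p under 0.05, all higher (3.73% of all genes, with 3.06% lower). *Col16a1* had a log2 fold change of 1.35 (adjusted p = 0.241), *Lama5* of 1.58 (adjusted p = 0.412) and *Col18a1* of 1.13 (adjusted p = 0.705, edgeR), and in each the Asxl1Y588XTg Kdm6bΔ/+ libraries lay above all WT libraries. Without WT replicate 2, *Lama5* had a log2 fold change of 2.35 and passed (adjusted p = 0.0328, edgeR). The Asxl1Y588XTg Kdm6bΔ/+ libraries lay wholly above WT for 11 of 41 members (6.68% of all genes) and wholly below for 0 (6.87%), and the members' median log2 fold change was 0.41 (0.00 over all genes tested), with 33 higher (49.9% of all genes). The 11 include *Col4a6* and *Lamb1*, which passed the filter without any WT library past its minimum. Against Kdm6bΔ/+, 0 Asxl1Y588XTg Kdm6bΔ/+ members were called by edgeR (0.0569% of all genes called higher and 0.0379% lower), 2 by DESeq2 (*Col16a1* and *Col18a1*), and 5 reached an unadjusted p under 0.05, all higher (6.54% of all genes, with 5.67% lower). *Col18a1* had a log2 fold change of 1.62 and *Col16a1* of 1.02, both with an adjusted p of 0.115 (edgeR), and *Col16a1* passed without Asxl1Y588XTg Kdm6bΔ/+ replicate 2 (adjusted p = 0.0391, edgeR). The Asxl1Y588XTg Kdm6bΔ/+ libraries lay wholly above Kdm6bΔ/+ for 7 members (9.32% of all genes), *Col4a6* included, and wholly below for 0 (9.57%), and 27 of 41 were higher (50.3%). *Col4a6* had no Kdm6bΔ/+ library past the filter's minimum, so its place is not a result.

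Whether the *Kdm6b* deletion acted differently on the 2 backgrounds was tested as an interaction over all 12 libraries. By edgeR 0 members were called (0.00% of all genes called higher and 0.0126% lower), by DESeq2 1 (*Col16a1*, lower), and at an unadjusted p under 0.05 there were 6 members, all negative. The interaction was −2.13 on the log2 scale for *Col16a1* (SE 0.38, adjusted p = 0.14), −1.90 for *Col18a1* (SE 0.54, adjusted p = 0.41) and −1.81 for *Lama5* (SE 0.65, adjusted p = 0.582, edgeR). *Col16a1* passed without Asxl1Y588XTg replicate 3 (adjusted p = 0.0386, edgeR). The share of all genes at an unadjusted p under 0.05 was 4.72% with a negative and 2.15% with a positive interaction, and 11 of 41 members had a positive one (47.2% of all genes).

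Genes that make, bind and cut these proteins were taken from 4 lists. Of 32 collagen processing and crosslinking genes, 29 were tested, and 3 were called higher in Asxl1Y588XTg against WT (1.58% of all genes tested) and 0 lower by edgeR, with 7 higher (7.30% of all genes) and 0 lower (2.05%) at an unadjusted p under 0.05. *Serpinh1* and *P3h3* rose, and the third, *Fkbp10*, was past the filter's minimum in 0 WT and 0 Kdm6bΔ/+ libraries, so it entered the test through the groups where it is high and is given as values alone. *P3h4* entered in the same way, and *Loxl1* and *Loxl2* without any WT library past the minimum. The tested genes of this list thus include some that the filter selected by genotype. *Serpinh1*, which encodes the collagen chaperone HSP47, had normalized counts of 33.9, 18.6 and 28.9 in WT and 176, 141 and 151 in Asxl1Y588XTg, with a log2 fold change of 2.51 (SE 0.29, adjusted p = 0.0036, edgeR), and passed without any 1 of the 6 libraries. *Fkbp10*, a collagen prolyl isomerase of the endoplasmic reticulum, had 3.7, 2.2 and 5.3 in WT and 51.3, 58.4 and 25.3 in Asxl1Y588XTg. *P3h3*, a prolyl hydroxylase family member, had 83.3, 49.2 and 52.4 in WT and 133, 173 and 153 in Asxl1Y588XTg (log2 fold change 1.30, SE 0.27, adjusted p = 0.0443, edgeR). The *P3h3* call was lost without WT replicate 2 (adjusted p = 0.0877), WT replicate 3 (0.171), Asxl1Y588XTg replicate 1 (0.0962), replicate 2 (0.191) or replicate 3 (0.144), and with genes of a mean count of at least 50 alone (0.0541, edgeR). The most abundant gene of the list, *P4hb*, a subunit of prolyl 4-hydroxylase that also serves other secreted proteins, made up 62.2% of its summed counts.

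In Asxl1Y588XTg Kdm6bΔ/+ against Asxl1Y588XTg, *P3h3* fell to 61.2, 46.0 and 67.1 normalized counts (log2 fold change −1.38, SE 0.20, adjusted p = 0.00993) and *Plod2*, a lysyl hydroxylase of collagen crosslinking, went from 62.4, 82.5 and 70.9 to 29.5, 33.0 and 26.8 (log2 fold change −1.25, SE 0.24, adjusted p = 0.0306, edgeR). The groups did not overlap for either gene, these being the processing genes called lower (1.59% of all genes), and 0 rose (0.145% of all genes; edgeR), with 9 lower (9.81%) and 0 higher (5.64%) at an unadjusted p under 0.05. The Asxl1Y588XTg Kdm6bΔ/+ libraries lay wholly below Asxl1Y588XTg for 13 of the 29 (14.1% of all genes). The 13 include *Fkbp10* and *P3h4*, which had no WT or Kdm6bΔ/+ library past the filter's minimum, so their places are not results. The *P3h3* call was lost without Asxl1Y588XTg Kdm6bΔ/+ replicate 1 (adjusted p = 0.051) and with the Y-linked covariate (0.077). The *Plod2* call was lost without Asxl1Y588XTg replicate 2 (adjusted p = 0.0786) or 3 (0.0631) or without Asxl1Y588XTg Kdm6bΔ/+ replicate 1 (0.108), 2 (0.104) or 3 (0.0729), with all genotypes in 1 fit (0.392) and with the Y-linked covariate (0.7, edgeR). *Serpinh1* had 56.8, 52.0 and 137 normalized counts in Asxl1Y588XTg Kdm6bΔ/+, a log2 fold change of −0.92 that did not pass (adjusted p = 0.298, edgeR).

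Of 28 receptors for collagen, laminin and fibronectin, 25 were tested and 2 were called higher in Asxl1Y588XTg against WT, again beside 1.58% of all genes. *Itga3*, an integrin alpha chain that binds laminins, had normalized counts of 1.8, 2.2 and 5.3 in WT, 60.4, 45.3 and 34.4 in Asxl1Y588XTg, and 8.1, 11 and 17.5 in Asxl1Y588XTg Kdm6bΔ/+. It was past the filter's minimum in 0 WT and 0 Kdm6bΔ/+ libraries, so its calls in both comparisons are not results and its values stand alone. *Ddr1*, a collagen-activated receptor kinase, rose from 11.9, 12 and 9.6 in WT to 110, 58.4 and 44.6 in Asxl1Y588XTg (log2 fold change 2.65, SE 0.45, adjusted p = 0.0173, edgeR). The Asxl1Y588XTg libraries were above all WT libraries for both. The *Ddr1* call was lost without WT replicate 3 (adjusted p = 0.096), Asxl1Y588XTg replicate 1 (0.0962) or Asxl1Y588XTg replicate 2 (0.0511, edgeR). When Asxl1Y588XTg Kdm6bΔ/+ was compared with Asxl1Y588XTg, 1 receptor was called higher (0.145% of all genes) and 1, *Itga3*, lower (1.59%). The higher one, *Itga1*, a collagen-binding integrin chain, rose from 216, 218 and 215 to 367, 293 and 340 (log2 fold change 0.64, SE 0.12, adjusted p = 0.0237, edgeR). The *Itga1* rise was lost without Asxl1Y588XTg replicate 3 (adjusted p = 0.053) or Asxl1Y588XTg Kdm6bΔ/+ replicate 1 (0.099) or 3 (0.0559), with all genotypes in 1 fit (0.124) and with the Y-linked covariate (0.477, edgeR). *Gpc1*, a glypican, was the most abundant receptor of the list.

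**Figure D4:**
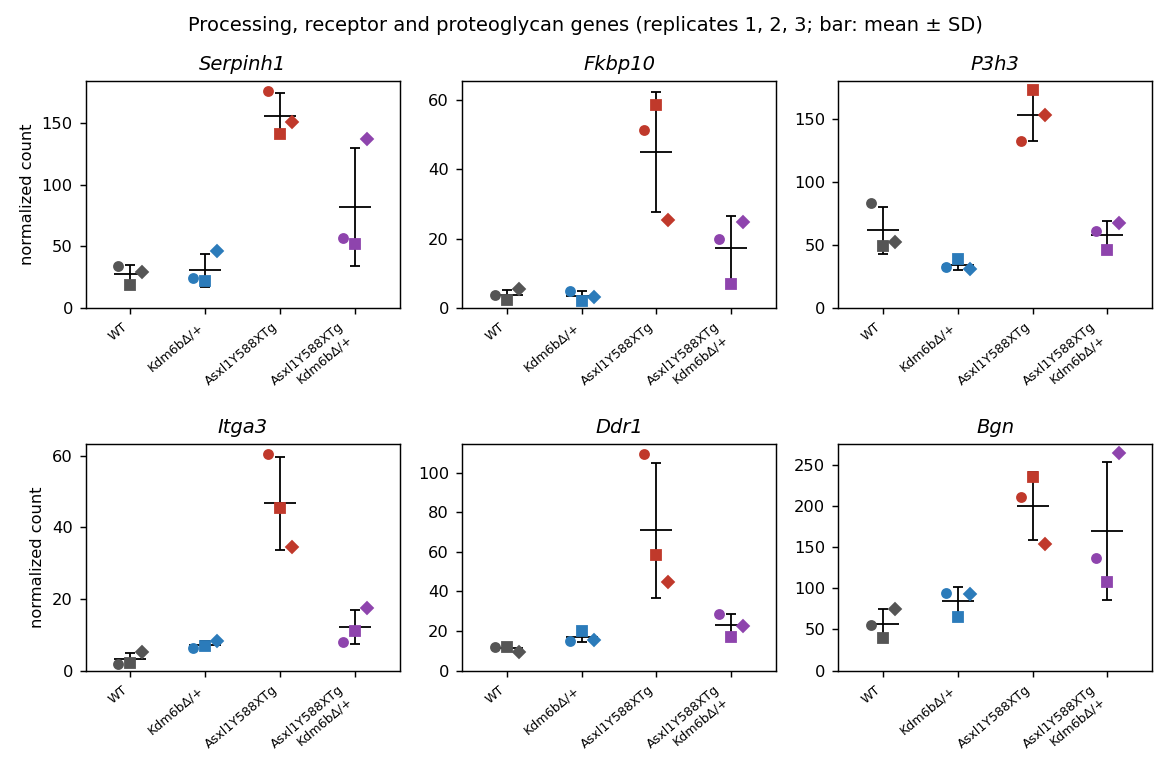
Normalized counts (vertical axis, from 0) of 6 matrix-related genes in each of the 12 libraries, with genotypes on the horizontal axis, replicates 1, 2 and 3 as circle, square and diamond, and bars for mean ± SD (n = 3). In all 6 panels the Asxl1Y588XTg libraries lie above all WT libraries, and for *Bgn* the Asxl1Y588XTg Kdm6bΔ/+ libraries overlap them.

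Of 38 other basement membrane and matrix glycoproteins, 36 were detected and 25 tested, with 2 called higher (1.58% of all genes) and 1 lower (0.0316%) in Asxl1Y588XTg against WT. *Bgn*, which encodes the proteoglycan biglycan, had normalized counts of 54.9, 39.3 and 74.9 in WT and 210, 235 and 154 in Asxl1Y588XTg (log2 fold change 1.82, SE 0.28, adjusted p = 0.012), and *Mmrn1*, a platelet and endothelial multimerin, 404, 327 and 507 in WT and 2173, 2320 and 1216 in Asxl1Y588XTg (log2 fold change 2.20, SE 0.28, adjusted p = 0.0145, edgeR). *Thbs1*, which encodes thrombospondin-1, fell from 2368, 3050 and 2116 to 746, 755 and 579 (log2 fold change −1.86, SE 0.15, adjusted p = 0.0011, edgeR). The groups did not overlap for these 3 genes. *Thbs1* was also below all WT libraries in Kdm6bΔ/+ (726, 881 and 386) and in Asxl1Y588XTg Kdm6bΔ/+ (835, 470 and 1241), without passing (adjusted p = 0.536 and 0.386 against WT, edgeR), so WT was apart from the other 3 genotypes for this gene. *Bgn* lost its call without Asxl1Y588XTg replicate 2 (adjusted p = 0.0587) and *Mmrn1* without WT replicate 1 (0.12) or 2 (0.0793) or with no filter on low counts (0.0698, edgeR). *Thbs1* did not pass with the Y-linked covariate (adjusted p = 0.105, edgeR), where its log2 fold change was −1.77. Of these 25, 0 were called by edgeR in Asxl1Y588XTg Kdm6bΔ/+ against Asxl1Y588XTg (0.145% of all genes higher and 1.59% lower), and 3 were higher (5.64% of all genes) and 4 lower (9.81%) at an unadjusted p under 0.05. Of 32 matrix proteases and inhibitors, 25 were tested and 0 were called in Asxl1Y588XTg against WT by edgeR, with 4 higher (7.30% of all genes) and 1 lower (2.05%) at an unadjusted p under 0.05. The 25 include *Adamts9* and *Mmp16*, which had no WT or Kdm6bΔ/+ library past the filter's minimum. *Adamts1*, a protease of proteoglycans, fell in Asxl1Y588XTg Kdm6bΔ/+ against Asxl1Y588XTg from 51.3, 42.3 and 50.6 to 12.5, 7.0 and 19.6 (log2 fold change −1.86, SE 0.37, adjusted p = 0.0323, edgeR). *Mmp16*, a membrane-bound metalloproteinase, had 14.1, 14.1 and 14.2 normalized counts in Asxl1Y588XTg against 1.5, 0.0 and 1.0 in Asxl1Y588XTg Kdm6bΔ/+, and since it was past the filter's minimum in the 3 Asxl1Y588XTg libraries alone, its call there is not a result. The *Adamts1* call was lost without Asxl1Y588XTg replicate 1 (adjusted p = 0.0561) or 3 (0.072) or Asxl1Y588XTg Kdm6bΔ/+ replicate 1 (0.119) or 2 (0.124), with all genotypes in 1 fit (0.0639) and with the Y-linked covariate (0.277, edgeR). *Mmp9*, a neutrophil gelatinase, and *Emilin1*, an elastin-associated glycoprotein, were the most abundant genes of the protease and glycoprotein lists.

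In these bulk libraries, fewer cells of a type and less RNA per cell cannot be told apart, so markers of the cells that make basement membrane were measured beside the members. Endothelial markers (12 of 12 tested) summed to 1888 ± 63.0 normalized counts in WT, 2023 ± 134 in Kdm6bΔ/+, 2979 ± 182 in Asxl1Y588XTg and 2202 ± 128 in Asxl1Y588XTg Kdm6bΔ/+. *Pecam1*, which progenitors and megakaryocytes also express, was the most abundant with 42.7% of the sum, and *Tek* and *Tie1* rose in Asxl1Y588XTg against WT while *Esam*, *Tek* and *Tie1* fell in Asxl1Y588XTg Kdm6bΔ/+ against Asxl1Y588XTg. With *Ramp2*, past the filter's minimum in 0 WT and 0 Kdm6bΔ/+ libraries and given as values alone, 3 markers were called higher in the first comparison (1.58% of all genes), and 3 were called lower in the second (1.59%). *Cdh5*, the defining junction cadherin of endothelium, had normalized counts of 6.4, 4.4 and 5.3 in WT, 34.2, 10.1 and 8.1 in Asxl1Y588XTg, and 24.3, 23 and 28.9 in Asxl1Y588XTg Kdm6bΔ/+. *Tek* had mean normalized counts of 68.8 in WT, 241 in Asxl1Y588XTg and 91.4 in Asxl1Y588XTg Kdm6bΔ/+, *Esam* 33.5, 235 and 69.6, *Emcn* 17.2, 36.3 and 19.8, and *Ramp2* 0.0, 34.2 and 7.96. Of the 12 markers, 7 (*Emcn*, *Esam*, *Kdr*, *Pecam1*, *Ramp2*, *Tek* and *Tie1*) had their highest mean in Asxl1Y588XTg, as *Col18a1* did, and 5 (*Cdh5*, *Egfl7*, *Flt1*, *Plvap* and *Stab2*) in Asxl1Y588XTg Kdm6bΔ/+. The Asxl1Y588XTg libraries lay wholly above WT for 7 of the 12 markers (10.5% of all genes), and the Asxl1Y588XTg Kdm6bΔ/+ libraries wholly below Asxl1Y588XTg for 4 (14.1%). The 7 above WT include *Ramp2* and *Cdh5*, which had no WT library past the filter's minimum, so their places are not results.

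Megakaryocyte markers (7 of 8 tested) summed to 1953, 1202 and 2025 normalized counts in WT, 3499, 7346 and 2903 in Asxl1Y588XTg, and 2994, 2096 and 2682 in Asxl1Y588XTg Kdm6bΔ/+, with *Itga2b* the most abundant. Mesenchymal stromal markers summed to 682 ± 307 in WT, 1057 ± 244 in Kdm6bΔ/+, 1132 ± 150 in Asxl1Y588XTg and 1730 ± 1012 in Asxl1Y588XTg Kdm6bΔ/+, 10 of 10 tested. By edgeR 0 were called in both main comparisons (1.58% of all genes higher and 0.0316% lower in Asxl1Y588XTg against WT, and 0.145% and 1.59% in Asxl1Y588XTg Kdm6bΔ/+ against Asxl1Y588XTg). Of the 10, 10 were higher in Asxl1Y588XTg than in WT (47.8% of all genes), with 1 at an unadjusted p under 0.05 (7.30%), and 9 were higher in Asxl1Y588XTg Kdm6bΔ/+ than in Asxl1Y588XTg (49.2%), with 2 at that level (5.64%). Set against WT, 10 were higher in Asxl1Y588XTg Kdm6bΔ/+ (49.9%), with 7 at that level (3.73%). These counts include *Pdgfra*, *Ebf3* and *Foxc1*, which passed the filter without any WT library past its minimum. *Pdgfra* and *Ebf3* had no Asxl1Y588XTg library past it either. These genes entered through the groups where they are high, so their places in the counts are not results. *Cxcl12*, the most abundant stromal marker, had 72.3, 145 and 409 normalized counts in WT, 438, 327 and 454 in Asxl1Y588XTg, and 500, 414 and 1668 in Asxl1Y588XTg Kdm6bΔ/+. *Col6a1* had 6.40, 8.74 and 26.7 in WT, 60.3, 23.8 and 42.6 in Kdm6bΔ/+, 27.2, 23.1 and 29.4 in Asxl1Y588XTg, and 25.1, 27.0 and 100.1 in Asxl1Y588XTg Kdm6bΔ/+, and its highest library, Asxl1Y588XTg Kdm6bΔ/+ replicate 3, was also the highest for *Cxcl12* and *Lepr*. Osteoblast markers (5 of 9 tested), fibroblast and pericyte markers (6 of 8) and macrophage markers (7 of 8) had 0 calls by edgeR in both comparisons, too few genes to set against these shares. Macrophage markers summed to 9358, 4843 and 3706 in Asxl1Y588XTg replicates 1, 2 and 3, and fibroblast and pericyte markers to 445, 202 and 240. *Thy1* held 49.9% of the fibroblast and pericyte sum over all libraries, with 316, 130 and 142 in these 3. Replicate 1 stood apart in both sums. Among the Asxl1Y588XTg libraries it was the highest for *Col16a1*, while replicate 2 was the highest for *Col18a1* and *Lama5*. *Bglap* and *Bglap2*, which define mature osteoblasts, reached at most 4 and 1 counts in any library. Other osteoblast markers were detected, with *Runx2* at 78.1% of their sum. *Ibsp* had mean normalized counts of 20.0 in WT, 43.4 in Kdm6bΔ/+, 40.7 in Asxl1Y588XTg and 53.4 in Asxl1Y588XTg Kdm6bΔ/+. Of the 5 tested, 2 were higher and 3 lower in Asxl1Y588XTg against WT (47.8% of all genes higher). *Dcn*, a fibroblast proteoglycan, reached at most 15 counts. The part of these cell types in the changes of *Col18a1*, *Col16a1* and *Lama5* was not tested.

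**Figure D5:**
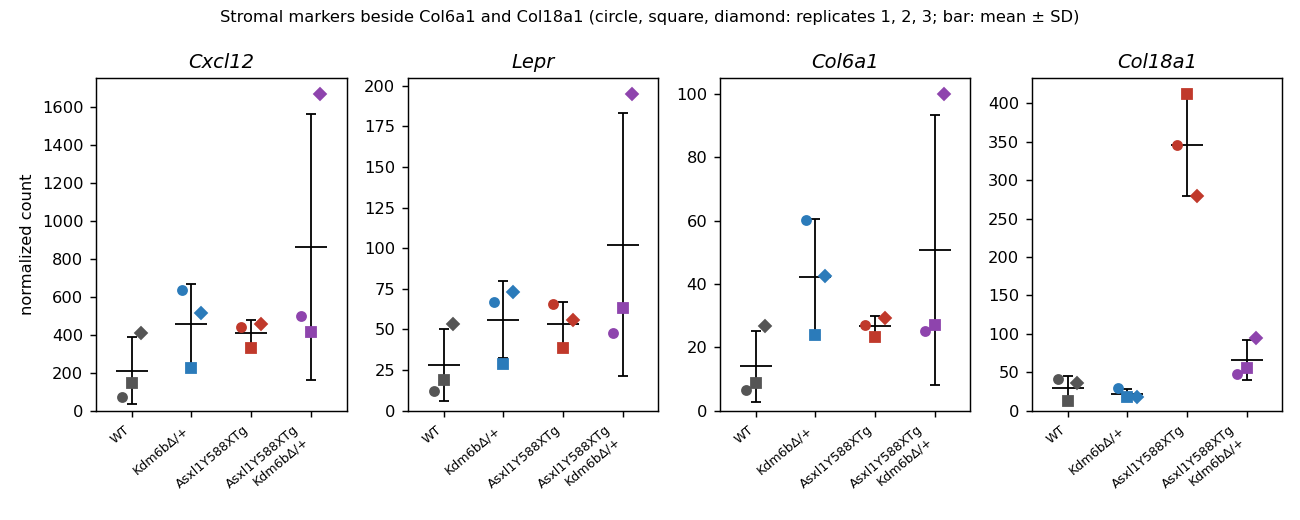
Normalized counts (vertical axis, from 0) of the stromal markers *Cxcl12* and *Lepr* beside *Col6a1* and *Col18a1* in each of the 12 libraries, with genotypes on the horizontal axis, replicates 1, 2 and 3 as circle, square and diamond, and bars for mean ± SD (n = 3). The highest point for *Cxcl12*, *Lepr* and *Col6a1* is Asxl1Y588XTg Kdm6bΔ/+ replicate 3, while *Col18a1* is highest in the 3 Asxl1Y588XTg libraries.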

How the data were processed

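RNA of LK cells from 12 mice was measured by bulk RNA-seq with 50 bp reads. The deposited values are raw counts per gene, which per the labels the authors made with FastQC, Trimmomatic, STAR and HTSeq on mm10. The annotation and strand setting are not given in the sources used here, and the labels and the study's methods name different library kits and sequencers. Counts were fitted with edgeR 4.0.16 in R 4.3.3 (TMM, filterByExpr over the 4 genotypes, robust quasi-likelihood test) in pairs of genotypes, with the interaction in 1 fit of all 12 libraries. Of 55291 genes, 22587 had no count and 15825 were tested, with Benjamini-Hochberg adjustment over all of these. A call needs an adjusted p under 0.05 and a fold above 1.5. Normalized counts are counts over the effective library size times the mean library size, and lengths are exon unions of GENCODE vM21, which matched all 61 members. Text names *Col18a1*, *Col16a1*, called members, the highest tested member per kb of each class and the 6 added genes, and for other lists the called and most abundant genes. Other genes named were chosen after their values were seen. Some genes are not reported here. Members and lists were chosen with earlier results of these data known. No 2 libraries of a genotype agreed within sampling noise. Alternatives were DESeq2 1.42.0, all genotypes in 1 fit, RLE factors, 2 other filters, a replicate block, a covariate marking Y-linked transcripts, and leaving out each library. With 3 mice against 3, an exact permutation test cannot go below p = 0.1. The fits were tested on simulated data.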

Additional observations from a re-analysis of the deposited data

Results flagged for a closer look

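*Col11a1* drew attention because its libraries with and without the *Kdm6b* deletion differed in opposite directions on the 2 backgrounds, although neither difference passed. Normalized counts were 9.15, 13.1 and 10.7 in WT and 15.1, 14.9 and 24.9 in Kdm6bΔ/+, so that all 3 Kdm6bΔ/+ libraries were above WT. They were 22.1, 30.2 and 27.3 in Asxl1Y588XTg and 7.38, 7.999 and 16.5 in Asxl1Y588XTg Kdm6bΔ/+, so that all 3 Asxl1Y588XTg Kdm6bΔ/+ libraries were below Asxl1Y588XTg. The difference between the 2 effects was −2.07 on the log2 scale (SE 0.65), which did not pass (adjusted p = 0.468, edgeR, with 0.307 to 0.972 over the alternatives and left-out libraries). The gene was at most 30.2 normalized counts in any library, and its cause was not tested.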

How the results depend on the processing

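Over 728 fold changes recomputed under the alternatives, 0 changed sign, 610 kept their side of the threshold, 87 lost a call and 31 gained one. The number of members called higher in Asxl1Y588XTg against WT was 3, and became 6 with DESeq2, 5 with all genotypes in 1 fit, 4 with the Y-linked covariate and 6 with no filter on low counts, with 2 to 5 when 1 library was left out. The genes added were *Col4a6*, *Lamc1* except with the covariate and, with DESeq2 and no filter, *Col4a1*. *Col4a6* was past the filter's minimum in 0 WT and 0 Kdm6bΔ/+ libraries, so its added calls are not results. With the covariate it was the only gene added. In Asxl1Y588XTg Kdm6bΔ/+ against Asxl1Y588XTg the number called higher was 1, and became 0 with all genotypes in 1 fit, 2 with no filter, 0 with the replicate block and 0 with the Y-linked covariate, with 0 to 1 when 1 library was left out. The number called lower was 3, and became 0 with the replicate block, 4 with DESeq2 and with no filter (*Lamc1* added), 3 with all genotypes in 1 fit (*Lamc1* in place of *Lama5*), 2 with the Y-linked covariate (without *Lama5*) and 1 to 4 when 1 library was left out. In Asxl1Y588XTg Kdm6bΔ/+ against WT, 0 became 1 with DESeq2, 3 with no filter (*Col16a1*, *Col6a1*, *Lama5*), and 0 to 1 with 1 library left out. In Asxl1Y588XTg Kdm6bΔ/+ against Kdm6bΔ/+, 0 became 2 with DESeq2, 3 with no filter, and 0 to 1 with 1 library left out. For the interaction, 0 called lower became 1 with DESeq2, 3 with no filter (*Col16a1*, *Col18a1*, *Lama5*), and 0 to 1 with 1 library left out. The replicate block and a left-out library leave fewer residual degrees of freedom, and for the other changes the cause was not tested. Replicate numbers name mice without pairing them, since same-numbered libraries deviated together with correlations of −0.116 to 0.078, beside −0.135 to 0.178 for other pairs. The block also ended the calls of *P3h3* (adjusted p = 0.144), *Ddr1* (0.0614), *Bgn* (0.0661), *Mmrn1* (0.135) and *Gata2* (0.0818) in Asxl1Y588XTg against WT. In Asxl1Y588XTg Kdm6bΔ/+ against Asxl1Y588XTg it ended those of *Col18a1* (0.0558), *Col16a1* (0.0616), *Lama5* (0.108), *Col5a1* (0.113), *P3h3* (0.0575), *Plod2* (0.106), *Itga1* (0.0882) and *Adamts1* (0.0827, edgeR). Low depth limits the 20 untested members.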
